A study of Equus caballus with 6 samples.

Results

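TNC, COMP, THBS4 and ACAN encode secreted proteins of the tendon matrix whose expression is known to respond to mechanical load. They are 4 of the 26992 entries of the deposited table and were taken by name, as the identifiers ENSECAG00000017433 (TNC), ENSECAG00000000336 (COMP), ENSECAG00000019665 (THBS4) and ENSECAG00000007493 (ACAN). All 4 averaged 5 or more normalized counts over the libraries and so were among the 11517 genes tested.

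Tenocytes, the resident fibroblasts of tendon, came from the tensile region of the superficial digital flexor tendons of 1 adult female light breed horse and were used at passage 3. By nucleofection they received a siRNA against the equine scleraxis mRNA (Scx siRNA, 3 libraries) or a non-targeting scramble siRNA (scramble control, 3 libraries). Cells of both groups then grew on collagen-coated silicone membranes under 1% cyclic strain at 0.5 Hz for 2 h a day over 3 days, so no library shows the 4 genes without load. Replicates repeat the experiment in that animal's cells, and p-values measure only the spread between these repeats. The knockdown rests on 1 siRNA, so loss of scleraxis and any other effect of that siRNA cannot be told apart. Its strands are shown, 5′ to 3′, because this siRNA is the treatment behind every comparison here, and capitals mark the 19 bases that pair in the duplex.
Sense strand: AGAGAAAGUUGAGCAAGGAtt
Antisense strand: UCCUUGCUCAACUUUCUCUgg

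Scleraxis is a basic helix-loop-helix transcription factor of the tendon lineage. Tenascin-C, the product of TNC, is a large glycoprotein that modulates the attachment of cells to fibronectin and accumulates where connective tissue is under tension. COMP and THBS4 belong to the thrombospondins that assemble as pentamers, and COMP binds fibrillar collagens. Aggrecan, the product of ACAN, carries the glycosaminoglycan chains that hold water in cartilage and in compressed parts of tendon.

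The libraries held 6539504 to 12213421 reads counted on genes. At least 1 read was found for 13151 to 13392 genes in the scramble control libraries and for 11026 to 11183 in the Scx siRNA libraries. The second Scx siRNA library, with 11183 such genes, held 10255963 reads, more than scramble control libraries 1 and 2 (8181819 and 9445832). The part of this difference in the fold changes was not tested. Scx, the targeted gene, had 5, 7 and 25 reads in the scramble control and 5, 0 and 0 reads in Scx siRNA libraries 1 to 3. Its log2 fold change of -2.19 did not pass the test (limma, Benjamini-Hochberg adjusted p = 0.192). So few reads cannot decide whether the knockdown worked. The paper reports a significant decrease of Scx in these samples, by qPCR and by reads mapped to its mRNA. It also reports that GC bias lowered the number of those reads. The fibroblast genes VIM, FAP and PRRX1 and the tendon transcription factor MKX were read in every library, whereas TNMD, a marker of differentiated tenocytes, and SELE, an endothelial gene, had 0 reads in all 6, which allows up to 3 reads in a library (counting error only). The paper regards TNMD as a less well supported tenocyte marker in horses, and found many other tendon-selective genes in these data. The second Scx siRNA library stood apart. Chi-square per degree of freedom over genes was 114 and 120 between it and the other Scx siRNA libraries, against 25.4 between those, and 7.37 to 14.6 among the scramble control libraries. Results for the 4 genes are therefore also given without it.

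TNC, COMP and ACAN fell in tenocytes exposed to Scx siRNA, and THBS4 did not pass the test. Mean normalized counts in Scx siRNA were 57.8% of the scramble control for TNC, 52.3% for COMP, 57.5% for THBS4 and 23.0% for ACAN. In these bulk samples, fewer expressing cells and less RNA per cell cannot be told apart. Of all tested genes, 12.1% were lower in Scx siRNA at an adjusted p under 0.05 from limma, and 12.9% were higher, 25.0% in all. These are 1395 lower and 1487 higher genes, and scaling to total reads gave 2072 lower and 959 higher. Every Scx siRNA library lay below every scramble control library for 3 of the 4 genes, and for 25.8% of all tested genes, and the reverse held for none of the 4 and for 22.3% of tested genes. The median log2 fold change was -0.93 over the 4 genes and -0.20 over all tested genes.

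**Figure D1:**
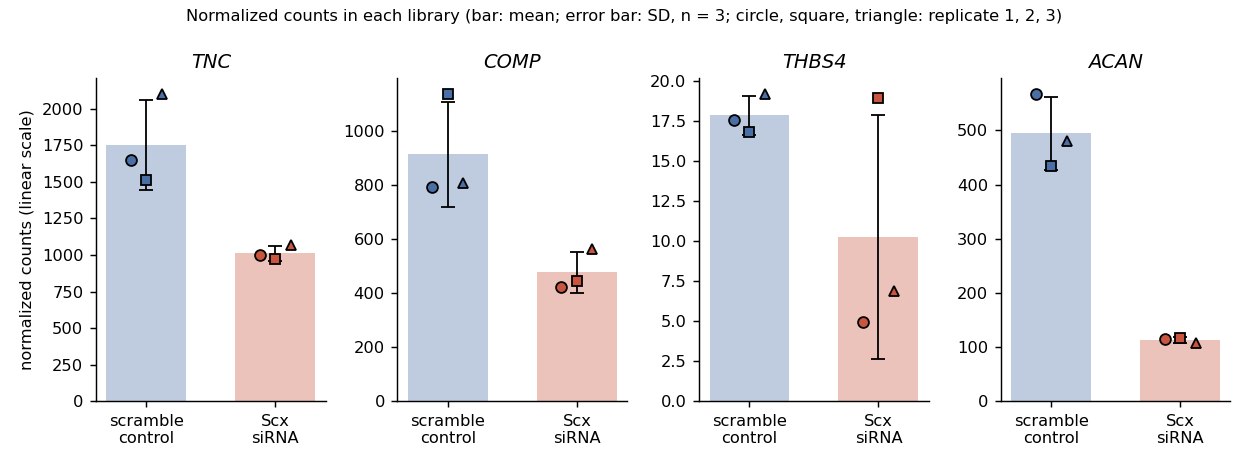
Normalized counts (linear axes from 0) of TNC, COMP, THBS4 and ACAN in the 3 scramble control and 3 Scx siRNA libraries, with symbols for replicates 1 to 3, bars at the mean and error bars of 1 SD. The groups are apart for TNC, COMP and ACAN, while the second Scx siRNA library of THBS4, at 18.9, sits among the scramble control libraries.

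TNC had 1647, 1511 and 2101 normalized counts in scramble control libraries 1 to 3 and 997, 971 and 1071 in Scx siRNA libraries 1 to 3. The means were 1753 ± 309 and 1013 ± 51.7 (SD, n = 3 each). The groups did not overlap, and the third scramble control library was the highest. The counts rest on 1689 to 3286 reads in each scramble control library and 775 to 974 in each Scx siRNA library. By limma, TNC fell by 0.78 on the log2 scale (SE 0.18, adjusted p = 0.0217), and 32.0% of all tested genes had a change as low or lower. Its log2 fold change was -0.75 (adjusted p = 0.0115) without the second Scx siRNA library. The call rests on all 3 scramble control libraries, as the adjusted p was 0.0819 without the first, 0.0767 without the second and 0.115 without the third. In these fits its log2 fold change was -0.82, -0.88 and -0.64. The number called among all tested genes also fell in them, from 2882 to 878, 517 and 588. TNC is known for alternatively spliced fibronectin type III repeats, and a RefSeq annotation of another horse assembly lists 6 transcript models for it. The counts are per gene and do not separate them.

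COMP had 792, 1136 and 808 normalized counts in scramble control libraries 1 to 3 and 422, 447 and 564 in Scx siRNA libraries 1 to 3. The means were 912 ± 194 and 477 ± 75.6 (SD, n = 3 each). Here the second scramble control library was the highest, and the groups again did not overlap. The scramble control libraries held 812 to 1353 COMP reads and the Scx siRNA libraries 343 to 448. Its log2 fold change of -0.92 (SE 0.22) had an adjusted p of 0.0241 from limma, and 28% of all tested genes had a change as low or lower. The value was -0.88 (adjusted p = 0.0166) without the second Scx siRNA library. Leaving out scramble control library 1, 2 or 3 gave an adjusted p of 0.0724, 0.129 or 0.0870, and leaving out the first Scx siRNA library gave 0.0577. With a weight for each group in limma, the adjusted p was 0.0721 for COMP and 0.0824 for TNC. The weights allow for the wider spread of most genes in Scx siRNA, whereas COMP and TNC themselves varied less there. Their coefficients of variation were 15.8% and 5.10% in Scx siRNA against 21.3% and 17.6% in the scramble control.

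THBS4 was read far less often. It had 17.6, 16.8 and 19.2 normalized counts in scramble control libraries 1 to 3 and 4.93, 18.9 and 6.91 in Scx siRNA libraries 1 to 3. The means were 17.8 ± 1.22 and 10.3 ± 7.58 (SD, n = 3 each). Scx siRNA libraries 1 and 3 lay below the scramble control and library 2 lay within it. The 4 and 5 reads in libraries 1 and 3 have 95% Poisson intervals of 1.09 to 10.2 and 1.62 to 11.7 reads, against 11.4 to 29.7 for the 19 reads in library 2 (exact, counting error only). The scramble control libraries had 18, 20 and 30 reads, with intervals of 10.7 to 28.4, 12.2 to 30.9 and 20.2 to 42.8 reads. The log2 fold change of -0.95 (SE 0.68) had an adjusted p of 0.330 from limma and a 95% interval of -2.53 to 0.64, so that a fall as large as that of ACAN and a modest rise both lie inside it. Its sign changed with cyclic loess normalization, to 0.13, and quantile normalization gave -0.05. The value was -1.46 with an adjusted p of 0.0658 when the second Scx siRNA library was left out.

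ACAN had 568, 435 and 482 normalized counts in scramble control libraries 1 to 3 and 116, 118 and 108 in Scx siRNA libraries 1 to 3. The means were 495 ± 67.3 and 114 ± 5.24 (SD, n = 3 each). The lowest scramble control library was thus well above the highest Scx siRNA library. The corresponding reads were 582, 518 and 753, and 94, 118 and 78. By limma, ACAN fell by 2.10 on the log2 scale (SE 0.22, 95% interval of the log2 fold change -2.62 to -1.59, adjusted p = 0.00281), and 7.80% of all tested genes had a log2 fold change as low or lower. ACAN alone of the 4 genes passed the study's further limit of 1.5 in size of the log2 fold change, which 6.23% of tested genes passed in this direction and 3.61% in the other. Its adjusted p stayed under 0.05 in all 12 alternatives that kept every library, where it was at most 0.00919, and in all 6 that left out 1 library, where it was at most 0.0334. Its log2 fold change was -2.13 (adjusted p = 0.000585) when the second Scx siRNA library was left out.

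Two-sided exact permutation tests on the normalized counts gave p = 0.1 for TNC, COMP and ACAN, the smallest value that 3 libraries against 3 allow, and p = 0.3 for THBS4.

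Ratios between the genes within a library do not change when a library is multiplied by a single factor, apart from the 1 added to each normalized count. Quantile and cyclic loess normalization, which move genes by their level, do change them, and these values were added after the data were seen. As gene lengths are not taken into account, only their differences between groups are read here. Relative to TNC, COMP and THBS4, ACAN was lower in every Scx siRNA library than in every scramble control library. The log2 ratio of TNC to ACAN was 1.54, 1.79 and 2.12 in the scramble control against 3.10, 3.03 and 3.30 in Scx siRNA, a difference of 1.33. Over the 9 pairs of a Scx siRNA with a scramble control library this difference ran from 0.91 to 1.77. For COMP over ACAN the log2 ratios were 0.48, 1.38 and 0.75 in the scramble control against 1.86, 1.92 and 2.38 in Scx siRNA. The groups again did not overlap, and the difference was 1.18, with a range of 0.48 to 1.90. For THBS4 over ACAN the difference was 1.16, with a range of 0.28 to 2.36. Without the second Scx siRNA library the differences were 1.38 for TNC, 1.25 for COMP and 0.67 for THBS4 over ACAN. Quantile and cyclic loess normalization gave 0.95 and 0.94 for TNC, 0.95 and 0.90 for COMP, and 1.99 and 2.13 for THBS4 over ACAN. Each of these 3 pairs gave p = 0.1 in a two-sided exact permutation test, the smallest possible, and an adjusted p of 0.2 over the 6 pairs compared (Benjamini-Hochberg), so the design cannot carry them past 0.05.

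With the authors' size factors, the ratios among TNC, COMP and THBS4 overlapped between the groups. The ratio of TNC to COMP was 2.08, 1.33 and 2.60 in the scramble control against 2.36, 2.17 and 1.90 in Scx siRNA, a difference of 0.15 on the log2 scale that ran from -0.45 to 0.83 over the 9 pairs of libraries. The log2 difference was 0.17 for TNC over THBS4, ranging from -1.10 to 0.99, and 0.02 for COMP over THBS4, ranging from -1.51 to 0.83. The exact permutation p was 0.8, 0.9 and 1 for these pairs, and ranges this wide leave room for unequal changes. The pairs with THBS4 turned with the processing. Quantile and cyclic loess normalization gave -1.04 and -1.19 for TNC over THBS4 (exact permutation p = 0.1 and 0.2) and -1.04 and -1.23 for COMP over THBS4 (exact permutation p = 0.3 for both). Without the second Scx siRNA library these differences were 0.71 and 0.58.

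**Figure D2:**
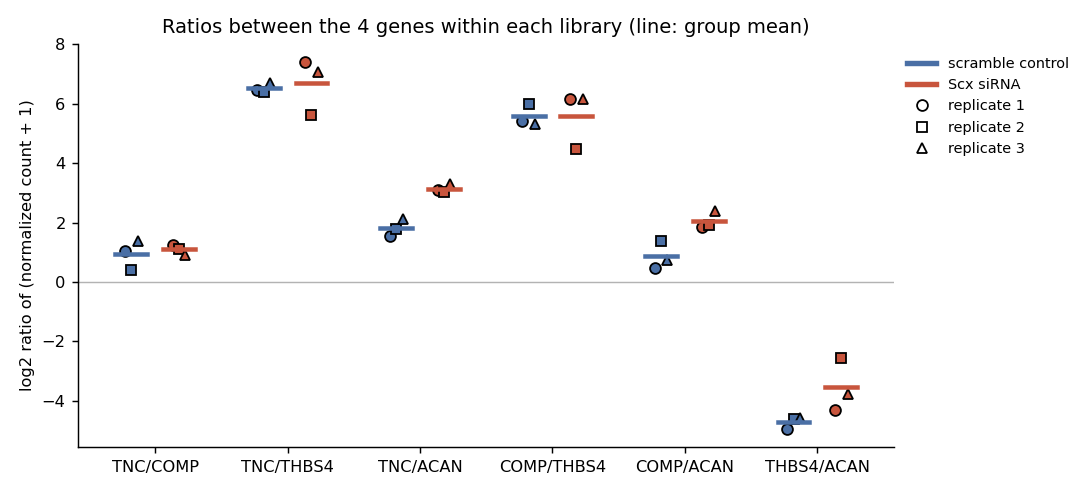
Log2 ratios of (normalized count + 1) for the 6 pairs of genes in each library, with scramble control in blue, Scx siRNA in red, symbols for replicates 1 to 3 and lines at the group means. With the authors' size factors, the groups are apart for the 3 pairs that hold ACAN and overlap for TNC/COMP, TNC/THBS4 and COMP/THBS4.

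The spread between replicates went the other way for 3 of the 4 genes than for most genes. Over the 11435 tested genes with a mean above 0 in both groups, the median coefficient of variation was 11.4% in the scramble control against 40.3% in Scx siRNA, and 8.47% of these genes varied less in Scx siRNA. TNC varied by 17.6% in the scramble control against 5.10% in Scx siRNA, COMP by 21.3% against 15.8%, and ACAN by 13.6% against 4.61%. Counting error alone gives about 3.42% for TNC, 5.00% for COMP and 10.2% for ACAN at the reads of the Scx siRNA libraries, so the ACAN libraries differed by less than counting error would give on average. THBS4 varied by 6.83% in the scramble control, less than the 21.0% that counting error gives, and by 73.9% in Scx siRNA. The library that was highest in the scramble control differed between the genes, being the first for ACAN, the second for COMP and the third for TNC and THBS4. These coefficients were compared as a description, with no test.

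The fold changes of all genes varied with their level, and the 4 genes stood differently to genes of their own level. In the class with a mean of 500 to 5000 normalized counts, which holds TNC (1383) and COMP (695), the median log2 fold change was 0.29, and 12.5% of its 3244 genes were as low as TNC or lower and 9.71% as low as COMP or lower. ACAN, with a mean of 304, lay in the class of 50 to 500, where the median was -0.29 and 4.30% of 5491 genes were as low or lower. THBS4, with a mean of 14.1, lay in the class of 5 to 50. There the median was -1.11, below the -0.95 of THBS4, and 54.1% of 2552 genes were as low or lower. The part that this trend with level has in the values of the 4 genes was not tested.

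**Figure D3:**
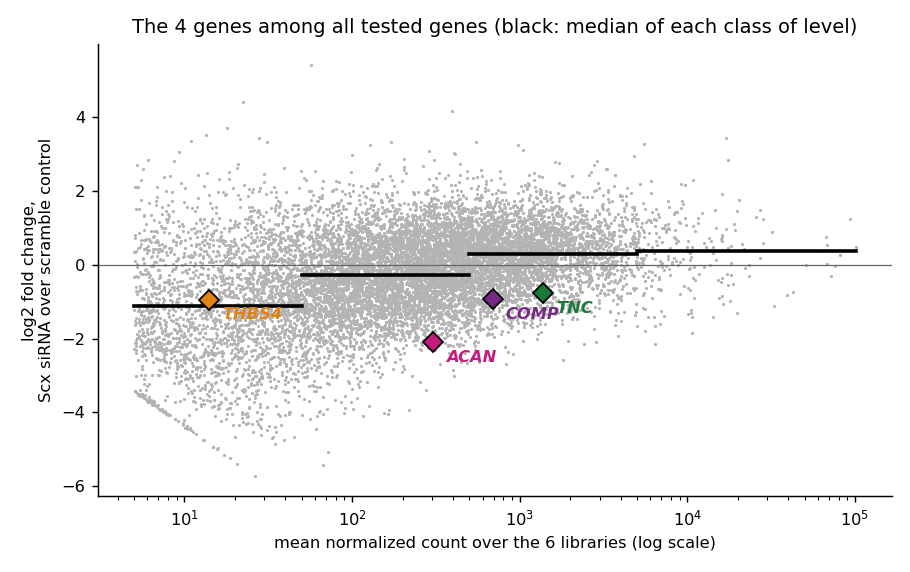
Log2 fold change, Scx siRNA over scramble control, against the mean normalized count (log axis) for the 11517 tested genes in grey, with the 4 genes as diamonds and black lines at the median of each class of level. TNC, COMP and ACAN lie well below the line of their class, and THBS4, at -0.95, lies close to its line at -1.11.

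Scaling moved the median of all tested genes, from -0.20 as reported to -0.48 when libraries were scaled to total reads, -0.02 with quantile normalization and -0.05 with cyclic loess normalization. Relative to that median, ACAN lay at -1.90 as reported and between -2.02 and -1.90 in the other 3. TNC lay at -0.57 as reported, -0.58 with total reads, -1.07 with quantile normalization and -1.01 with cyclic loess normalization. For COMP these values were -0.72, -0.72, -1.08 and -1.05. For THBS4 they were -0.74, -0.73, -0.03 and 0.18, so that only quantile and cyclic loess normalization, of these settings, placed THBS4 near the median.

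The 4 genes were set beside 33 further genes of the matrix, its turnover and its regulation, and cell type markers, for which the study pairs a name with an identifier. Of these, 29 were tested, and 7 fell and 5 rose, with a median log2 fold change of -0.31. With any 1 scramble control library left out, 3 or 4 of the 29 were called. Of all tested genes, 12.1% were called lower and 12.9% higher with every library kept. Of 6 collagen genes, 3 fell. COL1A1 went from 21993 ± 2493 (SD, n = 3) in the scramble control to 10679 ± 2483 (SD, n = 3) normalized counts, a change of -1.06 on the log2 scale (limma, adjusted p = 0.0178). COL5A1, whose product sets fibril diameter, fell by 1.62 and COL6A3 by 0.82 on the same scale (adjusted p = 0.00495 and 0.0219). The call held in all 12 alternatives that kept every library for COL1A1 and COL5A1, and in 9 for COL6A3, whose adjusted p reached 0.0830. With 1 library left out, it held in all 6 fits for COL5A1 but in only 3 for COL1A1 and 3 for COL6A3. COL1A2, COL3A1 and COL12A1, at 0.01, -0.30 and -0.37, did not pass the test, and COL1A2 was below 0 with TMM, total-read, quantile and cyclic loess scaling and with edgeR. THBS1, the other thrombospondin with an identifier, had 12655 ± 955 and 10896 ± 2865 normalized counts (SD, n = 3 each), which gave -0.25 on the log2 scale with an adjusted p of 0.460 from limma.

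Of 6 small leucine-rich proteoglycans, which bind collagen fibrils, 5 were tested and 3 rose, ASPN by a log2 fold change of 1.46, LUM by 1.23 and DCN by 0.73 (adjusted p = 0.00855, 0.00951 and 0.0379 from limma). ASPN, LUM and DCN averaged over 5000 normalized counts. In that class of 230 genes the median log2 fold change was 0.38, and 31.7% were called higher. BGN and FMOD had -0.58 and -0.79 with adjusted p = 0.324 and 0.236, and KERA was under the minimum mean. The adjusted p was under 0.05 in 12 of the 12 alternatives that kept every library for ASPN, in 11 for LUM and in 6 for DCN. Of the 6 fits that left out 1 library, it was so in 4, 3 and 2. Of the other matrix genes, LAMA5, a basement membrane laminin chain, and LOXL4, a collagen cross-linking enzyme, fell by 1.96 and 1.24 on the log2 scale (adjusted p = 0.00525 and 0.0119). LAMA5 kept its call in all 6 fits that left out 1 library, and LOXL4 in 3. FN1, FBLN1 and ELN did not pass the test.

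TGFB3, a ligand of the TGF-beta pathway known to promote matrix synthesis in tendon, fell from 3333 ± 155 to 1644 ± 395 normalized counts (SD, n = 3 each), or by 1.05 on the log2 scale (limma, adjusted p = 0.0146). Its call held in all 12 alternatives that kept every library and in 3 of 6 that left out 1. TGFB1 had 445, 411 and 423 normalized counts in the scramble control against 247, 69.8 and 312 in Scx siRNA. Its groups did not overlap, but the second Scx siRNA library was far below the other two, and the adjusted p was 0.118. Among proteases that degrade matrix, MMP2 fell by 0.89 and MMP13 rose by 0.85 on the log2 scale (adjusted p = 0.0380 and 0.0286), MMP3, HTRA1 and CTSK did not pass the test, and MMP1 was under the minimum mean. MMP2 kept its call in 11 of the 12 alternatives with every library. MMP13 kept it in 9, and lost it with total-read, quantile and cyclic loess scaling, where its log2 fold change went down to 0.44. With 1 library left out, the call held in 3 of 6 fits for MMP2 and in 2 for MMP13. Of the transcription factors, MKX had a value of 0.22 on this scale (adjusted p = 0.482), with a sign that changed with total-read scaling and quantile normalization. Of the 3 fibroblast markers, FAP rose by 1.75 (adjusted p = 0.00308), while VIM and PRRX1, at 0.48 and 0.26, did not pass the test. VIM was at -0.22 with quantile normalization, and PRRX1 was below 0, down to -0.12, with total-read, quantile and cyclic loess scaling. The summed normalized counts of the 3 markers, most of them from VIM, ran from 94504 to 100459 in the scramble control libraries and from 133350 to 185306 in the Scx siRNA libraries, and their part in the falls of TNC, COMP and ACAN was not tested.

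**Figure D4:**
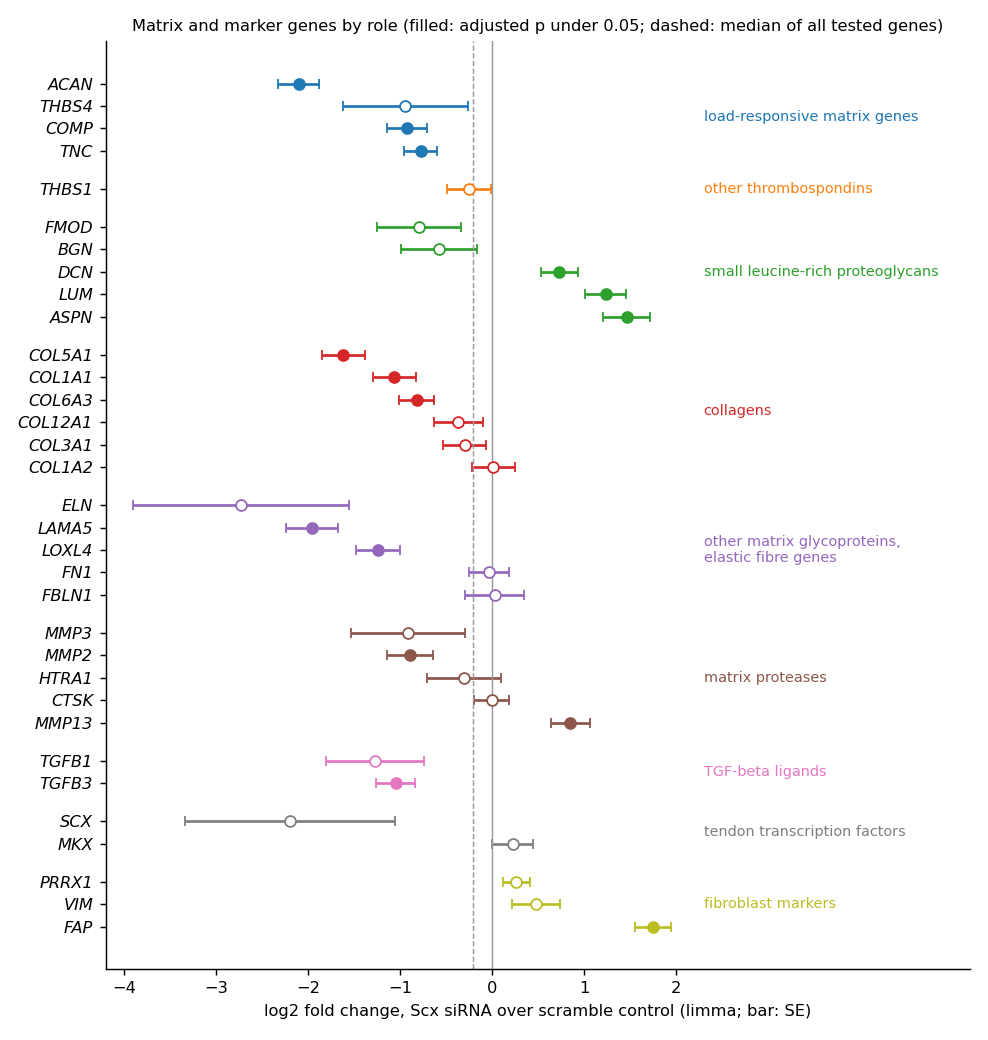
Log2 fold changes with standard errors for the 4 load-responsive genes and 29 further tested genes, grouped by role and filled where the adjusted p from limma was under 0.05. ACAN, at -2.10, is the lowest of the filled genes, and ASPN, LUM and DCN, at 1.46, 1.23 and 0.73, lie above 0.

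Among the 87 other genes with a name and a mean of at least 5, those whose log2 values followed each of the 4 genes most closely over the 6 libraries were listed, as a description in which the difference between the groups weighs heavily. ACAN was most like COL6A3 (Pearson r = 0.99), followed by AMID, also called AIFM2 (0.99), and GSDMD, which encodes a membrane pore protein (0.97). TNC was also most like COL6A3 (0.93), followed by ACAN (0.93) and LOXL4 (0.92). COMP was most like PSCD3, an exchange factor for ARF GTPases also called CYTH3 (0.96), GSDMD (0.96) and IGFBP5 (0.94), an IGF-binding protein that fell from a mean of 31.5 to 1.38 normalized counts (limma, adjusted p = 0.0162). THBS4 was most like SEPT4 (0.96), the neurotrophin receptor gene NTRK2 (0.92) and BAT2D1, also called PRRC2C (0.88), and of these only BAT2D1 passed the test between the groups. Among the 4 genes themselves, r was 0.93 for TNC with ACAN, 0.87 for COMP with ACAN and 0.80 for TNC with COMP, and 0.57 to 0.67 for THBS4 with the others.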

How the data were processed

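Per the study's methods, reads were trimmed (Trimmomatic), mapped to EquCab2 (HISAT2 2.0.3) and counted per Ensembl gene (HTSeq). The authors deposited a signal, the normalized count of each gene and library, which is the count over the library's size factor from DESeq2 1.12.4. Columns of the authors' own comparison (a log2 fold change, its standard error and Wald statistic as a score, and p-values) are deposited beside them and were not used.

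Within each library the values were multiples of what 1 read is worth (100% within 0.01 of a whole read), so reads were recovered. Genes with a mean of at least 5 were compared by limma 3.58.1 (R 4.3.3; lmFit and eBayes, trend on, both sides, group as the sole term) after taking log2(normalized count + 1). P-values were adjusted over 11517 genes by the method of Benjamini and Hochberg, and genes were called at an adjusted p under 0.05. Fold changes are on that scale. edgeR 4.0.16 and DESeq2 1.42.0 on the recovered reads and 16 further fits were alternatives (other pseudocounts, filters and scalings, a weight for each group, a replicate block, each library left out). Scripts were tested on simulated data. The 4 genes and the lists were chosen with earlier results of these data known. Named are the 4 genes, the listed genes and, for each of the 4, the 3 named genes with the highest r. Names and their identifiers come from the study's tables, and that of Scx from its text. Coordinates and gene lengths were not used here.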

Additional observations from a re-analysis of the deposited data

How the results depend on the processing

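Of the 18 alternatives, the log2 fold change of ACAN kept its sign and an adjusted p under 0.05 in all. TNC and COMP kept their sign in all, and lost the call with a weight for each group (-0.78 and -0.92). Of the 6 fits that left out 1 library, TNC kept the call in 3 and COMP in 2. Over all 6, their values ran from -0.88 to -0.64 and from -1.05 to -0.76. THBS4 was not called in any of the 17 alternatives it entered and had 0.13 with cyclic loess normalization. It could not be fitted at a mean of at least 50. The number of genes called, 2882 as reported, ran from 517 to 4889 with 1 library left out, being 878, 517 and 588 without scramble control library 1, 2 or 3 and 4889 without the second Scx siRNA library. Of the 29 further genes, 12 were called as reported and 3 to 14 with 1 library left out (4, 3 and 3 without scramble control library 1, 2 or 3). Scaling to total reads gave 2072 lower and 959 higher genes, against 1395 and 1487.

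The ratio of TNC to COMP differed by -0.12 to 0.36 with 1 library left out, below 0 only without the second scramble control library. That of TNC to THBS4 differed by -0.20 with a pseudocount of 8, by -1.04 with quantile and -1.19 with cyclic loess normalization (both added after seeing the data), and by -0.18 to 0.71 with 1 library left out. That of COMP to THBS4 differed by -0.34 with a pseudocount of 8, by -1.04 and -1.23 with the same normalizations, and by -0.26 to 0.58 with 1 library left out. The cause of these sign changes was not tested. With the replicate number as a replicate block, 2117 genes were called, and the adjusted p was 0.0427 for TNC, 0.0462 for COMP and 0.00919 for ACAN, with no call changed among the 4 genes. COL6A3 and DCN lost their calls under it, and 10 of the further genes were called. Deviations from the group mean had r = -0.08, 0.02 and 0.17 over genes between same-numbered libraries, and -0.23 to 0.21 between the others. This check cannot settle whether same-numbered libraries come from the same repeat of the experiment. The main fit did not treat them as pairs. THBS4 rests on 4 to 30 reads a library, and its Scx siRNA libraries varied by 73.9% where counting error gives 32.7%.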
